A study of Mus musculus with 4 samples.

Results

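The genes described here are 10 of the 32285 genes measured: the enzymes of prostaglandin and leukotriene synthesis Ptgs1, Ptgs2, Ptges, Alox5, Alox5ap, Lta4h and Ltc4s, the gene of annexin A1 (Anxa1), and the formyl peptide receptor genes Fpr1 and Fpr2. They were chosen by name, with earlier results of these data known. Their levels were followed through every immune cell class of a mouse melanoma, with and without a topical glucocorticoid (GC). Live CD45+ leukocytes were sorted, to a purity above 98% per the labels, from 10 tumors of the melanoma line 20967 and profiled by single cell RNA sequencing, which counts unique molecular identifiers (UMIs, each 1 captured RNA molecule) per gene and cell. The control group was 5 tumors under a cream without drug, and the GC group was 5 tumors under clobetasol propionate, a potent GC. According to the methods, both were put on the skin over the tumor, and the tumors were taken within the first week of treatment. Both groups shared the same line, derived on a C57BL/6 background carrying Nras+LSL-G12D and Tyr::CreERT2+/o, where the tyrosinase promoter drives an inducible Cre, and the same hosts, wild type C57BL/6 mice given the line intradermally. The labels give no host age, and 1 line stands for the tumor. Each tumor carried its own hashtag and is the replicate here. The 5 tumors of a group were pooled into 1 channel, with 17100 cells loaded for control and 3500 for GC, so that treatment and channel cannot be told apart.

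Glucocorticoids bind the glucocorticoid receptor, a transcription factor, and are known for damping eicosanoid formation and for raising annexin A1 in leukocytes. Eicosanoids are made from arachidonic acid, which the cyclooxygenases (COX, the Ptgs genes) turn into prostaglandin precursors and 5-lipoxygenase (Alox5, aided by its activating protein Alox5ap) turns into leukotriene A4. From there Lta4h makes leukotriene B4, a neutrophil attractant, and Ltc4s makes the cysteinyl leukotriene C4. Annexin A1 acts on formyl peptide receptors, chiefly Fpr2, while Fpr1 and Fpr2 also sense bacterial formyl peptides.

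The tables held 3803 control cells, with 347 to 1250 a tumor, and 305 GC cells, with 18 to 111 a tumor. No cell barcode was shared between the channels. A cell had 500 to 28438 UMIs, with a median of 7440 in control and 9163 in GC cells. The 16 clusters named by the authors were taken as 12 classes, in which the CD8 T cell class pools 3 clusters and the monocytes pool 3. Melanoma markers came to at most 0.0154 UMIs per 10000 in any tumor. Of 6 genes known to be raised by GC, 5 rose in all leukocytes by limma, among them Fkbp5 at a log2 change of 2.52. A class was tested where at least 2 GC tumors held 10 cells of it, or 5 cells in monocytes, eosinophils and regulatory T cells (Tregs). Levels are the mean over a tumor's cells of UMIs per 10000 UMIs of the cell, and log2 changes are GC minus control on log2(level + 0.1), so that they understate changes of low genes. A change was called at an adjusted p under 0.05.

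The promoters of Ptgs1 and Ltc4s are printed because limma called these genes in opposite directions in tumor-associated macrophages (TAMs). A second test, edgeR, called neither there (adjusted p 0.14 for Ptgs1 and 0.0714 for Ltc4s by edgeR). Promoter windows from RefSeq on GRCm38.p6, 250 bases before and 50 after the start site, were found for 9 of the 10 genes, all but Alox5ap. The capitals mark TGTTCT, a part of the element that the glucocorticoid receptor is known to bind, searched on both strands as TGTTCT or AGAACA. Ptgs1 lies at chr2:36230176-36230475 on the plus strand, with the match 204 bases before the start, and Ltc4s at chr11:50238483-50238782 on the minus strand, with no match.
Ptgs1: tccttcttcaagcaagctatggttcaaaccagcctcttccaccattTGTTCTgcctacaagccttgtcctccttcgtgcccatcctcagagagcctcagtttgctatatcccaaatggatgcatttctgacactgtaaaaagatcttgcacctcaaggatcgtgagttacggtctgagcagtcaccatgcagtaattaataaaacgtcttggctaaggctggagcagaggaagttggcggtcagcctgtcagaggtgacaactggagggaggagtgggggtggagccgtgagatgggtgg
Ltc4s: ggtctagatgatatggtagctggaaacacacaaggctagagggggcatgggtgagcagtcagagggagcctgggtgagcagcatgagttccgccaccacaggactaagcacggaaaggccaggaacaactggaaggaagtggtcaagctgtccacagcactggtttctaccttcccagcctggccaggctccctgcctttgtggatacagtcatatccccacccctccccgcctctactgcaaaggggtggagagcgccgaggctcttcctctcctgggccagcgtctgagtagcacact
The hexamer stood in 3 of the 9 windows (Ptges, Ptgs1 and Fpr1) and in 19.0% of all 32851 windows. TATAAA or TTTATA, which can share at most 1 end base with the hexamer, stood in 3 of 9 (Fpr1, Fpr2 and Anxa1) and in 13.6% of all windows. CCAAT or ATTGG stood in 3 of 9 (Lta4h, Fpr1 and Fpr2) and in 37.4% of all. A match is a description of these letters and not a binding site.

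In control tumors the prostaglandin genes split between classes. Ptgs2 (chr1:150100031-150108227, plus strand, GRCm38), the inducible COX-2, was highest in neutrophils, at 48.7, 46.9, 44.8, 79.8 and 61.5 UMIs per 10000 in the 5 tumors. Eosinophils followed at a mean of 34.4 ± 4.87 (SD, n = 5), and no eosinophil value reached the lowest neutrophil value. Monocytes (8.91, range 4.10 to 13.4), TAMs (8.04, 6.87 to 11.1) and the dendritic cell cluster DC 2 (6.94, 4.78 to 11.3) overlapped one another and lay below both granulocyte classes. DC 1 was at 0.576, and CD8 T cells, the CD4 cluster, NK cells and Tregs lay between 0.179 and 0.215. These lymphoid levels are set beside the myeloid ones as what free RNA in the droplets could give. After every cell was thinned to 1000 UMIs, 81.8% of control neutrophils had a Ptgs2 UMI (exact 95% interval 74.8 to 87.6%), against 2.73% of CD8 T cells. Unthinned median depths were 4220.5 and 6826 UMIs.

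Ptgs1 (chr2:36230426-36252272, plus strand), the constitutive COX-1, belonged mostly to TAMs, which gave 86.1% of its 416 control UMIs. Its TAM level was 0.325, 0.412, 0.3, 0.262 and 0.531 UMIs per 10000 in the 5 control tumors. Eosinophils (0.141, range 0 to 0.293) and neutrophils (0.138, range 0 to 0.230) came next, and the eosinophil range overlapped the lowest TAM values. Ptges (chr2:30889471-30929863, minus strand), which makes prostaglandin E2 from the COX product, had 333 control UMIs, 70.0% of them in monocytes and 26.4% in TAMs. Its monocyte level varied among tumors from 0.0312 to 0.808, and within the monocytes it was 0.584 in cluster Monocytes 1 and 0.0144 in Monocytes 2. Ptges had no UMI in control neutrophils, the class with the highest Ptgs2. In control monocytes 34 of the 54 cells with a Ptges UMI (63.0%) also had a Ptgs2 UMI, set beside 250 of all 449 control monocytes. In control TAMs it was 32 of 60 (53.3%), set beside 463 of all 723.

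On the leukotriene side, Alox5 (chr6:116410077-116461178, minus strand) was a granulocyte gene. Control eosinophils held 1.98, 3.75, 2.92, 1.80 and 2.20 UMIs per 10000, all above the neutrophils, which ranged from 0.812 to 1.14. TAMs were lower again at 0.0829 (0.0479 to 0.116). Although low per cell there, TAMs gave 22.9% of the 293 control Alox5 UMIs, against 42.7% from eosinophils and 24.9% from neutrophils. Alox5ap (chr5:149264767-149288153, plus strand; the annotation also has Gm19719 antisense to it) was broader over myeloid cells. Its levels in eosinophils (6.36, range 3.82 to 8.22), neutrophils (5.35, 3.89 to 6.51) and monocytes (4.62, 4.18 to 5.69) overlapped, TAMs (3.08, 2.87 to 3.48) and DC 2 (3.01, 2.44 to 3.70) lay below the monocytes, and DC 1 and the lymphoid classes were at 0.113 or less. TAMs and monocytes, which hold Alox5ap, had little Alox5 (0.0829 and 0.0251). Of the control TAMs, 94.7% of the 38 with an Alox5 UMI also had an Alox5ap UMI, set beside 85.8% of all control TAMs.

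The 2 enzymes after leukotriene A4 were placed differently. Lta4h (chr10:93453411-93484875, plus strand) was found in every control class, from eosinophils at 2.01 (range 1.46 to 3.02) and NK cells at 1.51 (0.870 to 2.07) through CD8 T cells at 0.680 and TAMs at 0.352 to neutrophils at 0.0993. With the classes not printed here put between them, each neighbour overlapped the next. Among the printed classes, CD8 T cells (0.459 to 0.979) lay above TAMs (0.289 to 0.403), and TAMs above neutrophils (0 to 0.230). CD8 T cells gave the most control Lta4h UMIs, 24.5% of 1709. An Lta4h UMI was found in 6 of 162 control neutrophils over all UMIs and in 0 of 154 after thinning to 1000 UMIs, which allows a share of up to 1.95% at that depth, while 14.7% of control eosinophils of at least 1000 UMIs had 1. Ltc4s (chr11:50236461-50238616, minus strand; Gm26542 is annotated antisense) had few UMIs, 214 in control cells, with 72.4% of them in TAMs. TAMs at 0.144 (range 0.0618 to 0.212), DC 2 at 0.130 and DC 1 at 0.113 overlapped, and no UMI was found in control eosinophils, NK cells, Tregs or the CD4 cluster. Mean levels of Ptgs1, Ptges and Ltc4s stayed under 1 UMI per 10000 in every control class.

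Anxa1 (chr19:20373428-20390944, minus strand; the lincRNA 1500015L24Rik overlaps it on the other strand) formed a gradient without a gap. Neutrophils were highest at 1.78, 3.28, 2.29, 2.75 and 2.19 UMIs per 10000 in the 5 control tumors. Monocytes (1.43), TAMs (1.07), DC 2 (0.886), NK cells (0.574) and CD8 T cells (0.402, range 0.295 to 0.457) followed, each overlapping the next, and Tregs were at 0.0415. Within the CD8 T cells the clusters CD8 1 and CD8 3 were at 0.484 and 0.572 and CD8 2 at 0.188. Within the monocytes, Monocytes 2 was at 2.22 and Monocytes 1 at 0.840. After thinning, 3.53% of control CD8 T cells (2.41 to 4.97%) and 0.621% of Tregs (0.128 to 1.80%) had an Anxa1 UMI.

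The receptors were myeloid. Fpr1 (chr17:17876471-17883940, minus strand) was at 1.16, 0.978, 1.61, 1.26 and 1.29 UMIs per 10000 in control neutrophils, above TAMs at 0.199 (0.165 to 0.243) and monocytes at 0.0920, with no UMI in the CD4 cluster, Tregs, NK cells or the dendritic cells. Fpr2 (chr17:17887824-17893952, plus strand) starts 3883 bases from Fpr1. It was highest in neutrophils (2.89, range 1.82 to 3.86), which overlapped TAMs (1.58, 1.24 to 1.91), while monocytes (0.933, 0.744 to 1.10) lay below TAMs and DC 2 was at 0.555. TAMs, which were more and deeper cells, gave 61.4% of the 2121 control Fpr2 UMIs and neutrophils 9.24%. There were 723 control TAMs at a median of 12883 UMIs and 162 control neutrophils at 4220.5. Fpr2 overlaps Fpr3 on the same strand and shares 15.8% of its 90-base stretches with Fpr3 and Gm5966, so that some reads may have been lost or moved between them, whereas the other members shared none. Fpr3 itself had 84 control and 19 GC UMIs, and Fpr-rs3, Fpr-rs4, Fpr-rs6 and Fpr-rs7 had 0.

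**Figure D1:**
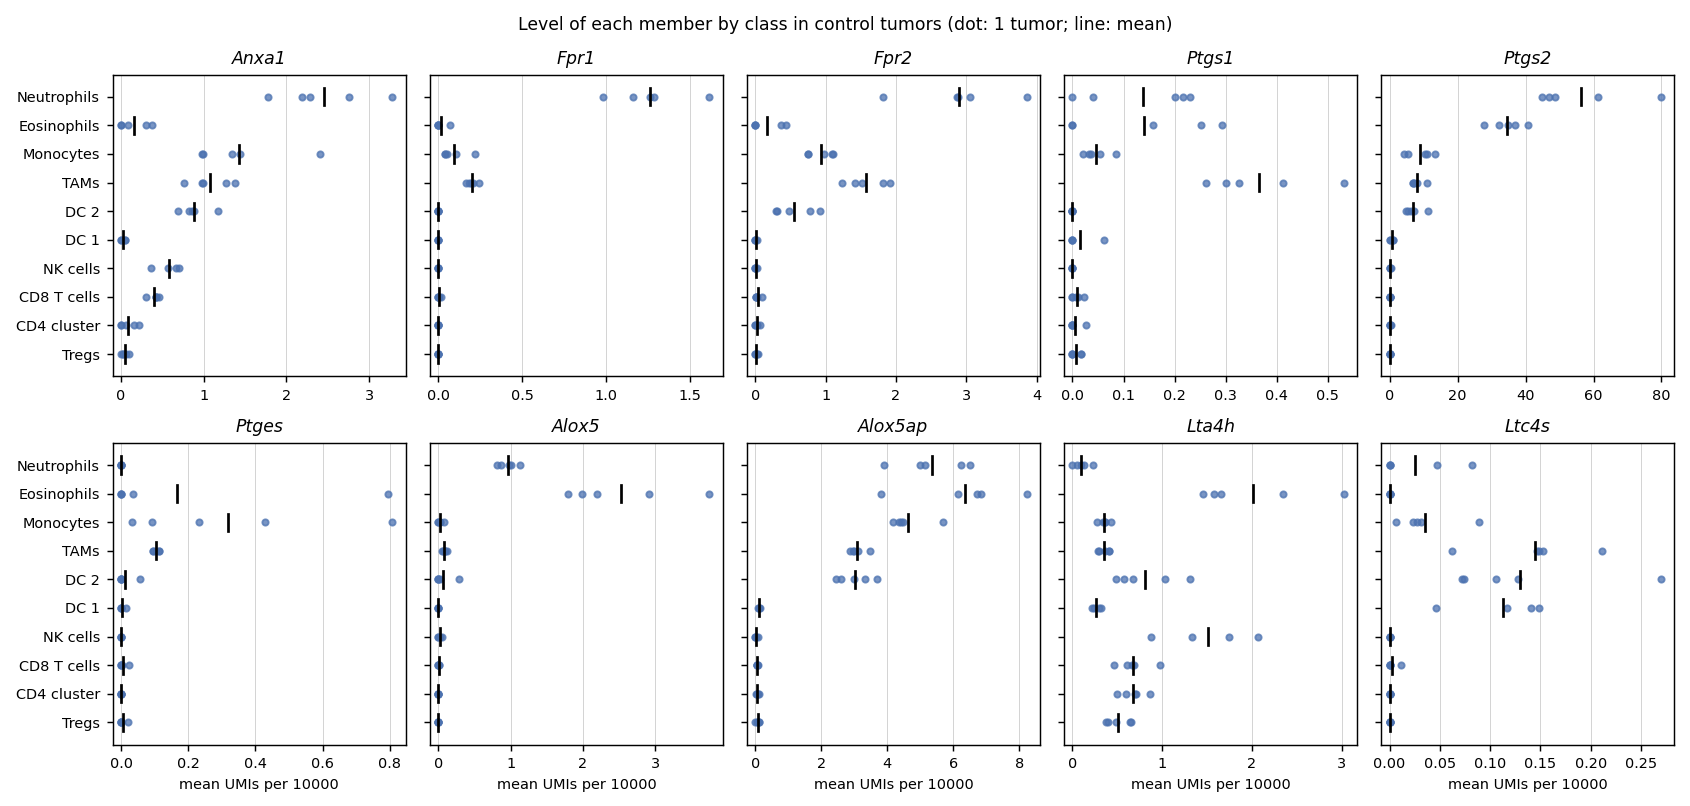
Mean level of each gene (x axis, UMIs per 10000, a separate linear scale per gene) by class (y axis) in control tumors of at least 10 cells, with 1 dot a tumor and a line at the mean. Neutrophils lead for Ptgs2, Anxa1, Fpr1 and Fpr2, eosinophils for Alox5, TAMs for Ptgs1, and Lta4h is spread over all classes.

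In TAMs, Alox5ap rose under GC. Its level was 2.97, 2.99, 2.87, 3.48 and 3.10 UMIs per 10000 in the 5 control tumors and 5.64 and 4.75 in the 2 GC tumors with at least 10 TAMs (17 and 16 cells). Both GC values lay above all control values. The log2 change was 0.73 ± 0.12 (SE) with an adjusted p of 0.0025 by limma, and 0.89 with an adjusted p of 0.0007 by edgeR on summed UMIs. It passed under 17 of 18 alternatives, with adjusted p from 1.67e-07 to 0.182. The background was high in this class. Of the 5988 genes tested in TAMs, 21.2% were called by limma and 11.2% by edgeR, and 36.5% had groups that did not overlap, beside 3 of the 8 tested members for limma, 1 of 8 for edgeR and 3 of 8 without overlap. The limma calls were 411 higher and 859 lower, but 564 and 618 under median-of-ratios scaling and 415 and 255 by edgeR. The median log2 change over all genes tested was -0.12, and that of the 8 members was 0.26.

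Ltc4s was higher in TAMs under GC by limma. The control tumors were at 0.0618, 0.212, 0.149, 0.147 and 0.153 UMIs per 10000 and the GC tumors at 0.296 and 0.621, without overlap. This was a log2 change of 1.16 ± 0.30 with an adjusted p of 0.0184 by limma, and edgeR gave 1.59 with an adjusted p of 0.0714. Over 16 alternatives 14 passed, with adjusted p from 0.0014 to 0.423. Pooled, 16 of 43 GC TAMs and 91 of 723 control TAMs had an Ltc4s UMI, at median depths of 17855 and 12883 UMIs. All 16 of those GC cells also had an Alox5ap UMI, as did 42 of the 43 GC TAMs.

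Ptgs1 was lower in TAMs under GC by limma. Against 0.262 to 0.531 UMIs per 10000 in the control tumors, the GC tumors were at 0.0240 and 0.223. The log2 change was -1.19 ± 0.34 with an adjusted p of 0.0319 by limma, while edgeR gave -1.36 with an adjusted p of 0.14. Only 7 of 17 alternatives passed, with adjusted p from 0.0002 to 0.299, and without GC tumor 2 the change was -0.50. The call therefore rests on that tumor of 17 cells.

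The other members tested in TAMs were not called by limma or by edgeR. Anxa1 was at 0.765, 1.38, 0.988, 1.26 and 0.977 UMIs per 10000 in control tumors and at 1.55 and 1.30 in GC tumors, a log2 change of 0.40 ± 0.20 with an adjusted p of 0.182 by limma. It passed under 1 of 18 alternatives, the mean of the deposited log values, with adjusted p from 0.0312 to 0.802. Ptgs2 spanned 6.87 to 11.1 in control and 5.43 and 9.28 in GC tumors, and Fpr2 spanned 1.24 to 1.91 and then 0.937 and 2.31, so that the GC values of each lay on both sides of the control mean. Fpr1 and Lta4h likewise overlapped between groups. The adjusted p of the members not called ran from 0.182 to 0.884. Alox5 and Ptges were below the minimum of 0.2 UMIs per 10000 and were not tested: Alox5 had 1 UMI in the 43 GC TAMs.

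**Figure D2:**
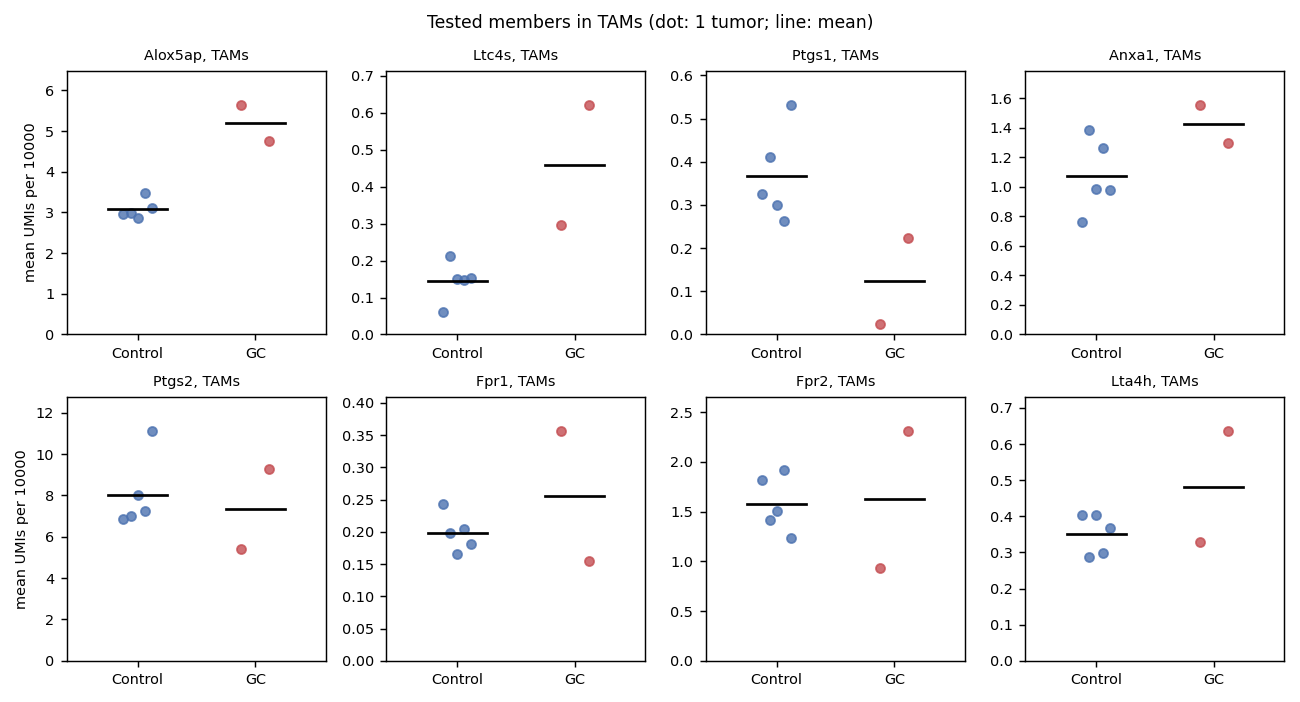
Level of the 8 tested genes in TAMs (y axis, mean UMIs per 10000, from 0, a separate scale per gene) in control and GC tumors, with 1 dot a tumor and a line at the mean. Both GC tumors lie above all control tumors for Alox5ap and Ltc4s and below them for Ptgs1, and they overlap the control tumors for the other 5 genes.

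Markers of other cells moved with treatment in the TAMs. The monocyte list (5 genes) summed to 12.7 to 22.6 UMIs per 10000 in control and 37.5 to 46.3 in GC tumors with at least 5 TAMs, where Chil3 went from 0.302 to 0.886 up to 19.7 to 31.2 while Ccr2 was at 9.83 to 12.1 and then 5.22 to 8.73. The neutrophil list summed to 1.01 to 1.35 in control and 1.93 to 3.63 in GC tumors, with 4 of 6 genes detected under GC and Retnlg and Mmp9 at 0. The macrophage list summed to 47.9 to 67.8 and 54.6 to 75.2. Their part in the TAM results was not tested. In GC TAMs the eosinophil, B cell and basophil lists had no UMI.

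In monocytes, Fpr2 was higher and Lta4h lower under GC by limma. The 2 GC tumors held only 8 and 10 monocytes, so that these tests are thin. Fpr2 was at 1.10, 0.751, 1.09, 0.980 and 0.744 UMIs per 10000 in control and at 1.70 and 1.99 in GC tumors, without overlap. This was a log2 change of 0.92 ± 0.22 with an adjusted p of 0.0245 by limma and 1.12 with 0.0478 by edgeR as the adjusted p. It passed under 13 of 19 alternatives (adjusted p 0.0015 to 0.499), and lost the call without GC tumor 3 (0.82), without control tumor 2 (0.86) and without control tumor 4 (0.94). Within the cluster Monocytes 1 alone, an alternative added after seeing the data because Fpr2 differs between the monocyte clusters, the change was 0.65 with an adjusted p of 0.0699.

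Lta4h in monocytes was at 0.357, 0.344, 0.272, 0.367 and 0.430 UMIs per 10000 in control and at 0.0775 and 0.120 in GC tumors. Both GC values lay below all control values, and 4 of the 21 GC monocytes had an Lta4h UMI. The log2 change was -1.19 ± 0.27 with an adjusted p of 0.0178 by limma and -1.61 with an adjusted p of 0.142 by edgeR. It passed under 12 of 18 alternatives (adjusted p 0.0107 to 0.433), and lost the call without control tumor 1 (-1.19) and without control tumor 4 (-1.18).

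Alox5ap in monocytes was at 4.41, 4.18, 4.36, 4.47 and 5.69 UMIs per 10000 in control and at 5.92 and 9.67 in GC tumors, again without overlap. Its log2 change of 0.71 ± 0.22 had an adjusted p of 0.0551 by limma, and edgeR called it at 0.90 with an adjusted p of 0.0207. Of 19 alternatives 10 passed, with adjusted p from 0.0002 to 0.322, and within Monocytes 1 the change was 0.97 with an adjusted p of 0.0138. Fpr1 was at 0.0401 to 0.220 in control and at 0.995 and 0.184 in GC tumors, so that 1 GC tumor overlapped. It had a log2 change of 1.62 ± 0.55 with an adjusted p of 0.0759 by limma, against 3.14 with an adjusted p of 0.0478 by edgeR, and 3 of 16 alternatives passed (adjusted p 0.0032 to 0.539). Anxa1 was at 0.973 to 2.40 in control and at 0.818 and 1.84 in GC tumors, and its log2 change of -0.12 ± 0.38 turned positive under other settings.

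Of the 7 members tested in monocytes, limma called 2 and edgeR 3, and 3 did not overlap between groups. Of all 5765 genes, limma called 15.4% and edgeR 6.82%, and 35.3% did not overlap. The limma calls were 228 higher and 659 lower, against 213 and 180 by edgeR, and the median log2 change was -0.19 over all genes and 0.63 over the members. The monocyte list summed to 44.8 to 54.5 UMIs per 10000 in control and 82.0 to 83.0 in GC monocytes, with Chil3 from 2.59 to 11.4 up to 39.1 to 55.9. Plac8 of the same list was at 19.6 to 26.4 in control and at most 6.02 in GC monocytes, and the mean of Ccr2 was 10.7 and 8.68. The neutrophil list went from 1.40 to 2.90 up to 4.10 to 4.75, with S100a9, Retnlg and Mmp9 at 0 under GC. Its other genes split: the means in control and GC monocytes were 0.0762 and 2.52 for Cxcr2, 0.283 and 1.17 for S100a8, and 1.41 and 0.742 for Csf3r. Their part in the monocyte results was not tested.

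In neutrophils no member was called. Alox5ap was at 6.51, 5.15, 6.22, 4.98 and 3.89 UMIs per 10000 in control and at 9.91 and 7.38 in GC tumors, above all control values. Ptgs2 was at 44.8 to 79.8 in control and at 41.8 and 34.3 in GC tumors, below all control values. The log2 changes were 0.69 ± 0.26 for Alox5ap (adjusted p 0.155 by limma, 0.206 by edgeR) and -0.54 ± 0.20 for Ptgs2 (adjusted p 0.133 by limma, 0.264 by edgeR), and each passed under 1 of 18 alternatives. Anxa1, the highest level of all classes, was at 1.78 to 3.28 in control and at 1.73 and 5.32 in the GC tumors, on both sides of the control range. Its log2 change was 0.33 with an adjusted p of 0.707 by limma. Fpr1 at 1.82 and 1.19 and Alox5 at 1.08 and 0.890 in the GC tumors overlapped the control tumors, as did Fpr2 at 2.35 and 2.13. Of the 6 members tested, 0 were called by limma, edgeR or DESeq2, and 2 had an unadjusted p under 0.05 by limma. Of 4411 genes, 4.83% were called by limma and 4.65% by edgeR, and 22.2% did not overlap, beside 2 of the 6 members. Here too Chil3 was at 0 to 0.147 UMIs per 10000 in control and 61.1 to 83.9 in GC neutrophils, and its part was not tested.

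The eosinophils were shallow, with a median of 873.5 UMIs in control and 721 in GC cells, and only 10, 9 and 8 cells in the 3 GC tumors used. Ptgs2 was at 34.8, 32.1, 27.7, 40.6 and 36.8 UMIs per 10000 in control and at 26.4, 7.86 and 26.6 in GC tumors, all below the control range. Of the GC eosinophils, 5 of 32 had a Ptgs2 UMI, and of the control cells 209 of 478. The log2 change of the level was -0.94 ± 0.36 with an adjusted p of 0.127 by limma and -2.18 with an adjusted p of 2.16e-07 by edgeR, which weighs deep cells more. It passed under 5 of 21 alternatives.

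Alox5ap in eosinophils was at 6.72, 6.16, 8.22, 3.82 and 6.85 in control and at 7.21, 14.2 and 15.7 in GC tumors, with the first GC value inside the control range. The log2 change was 0.92 ± 0.34 with an adjusted p of 0.121 by limma, against 0.18 with 0.827 as the adjusted p by edgeR, and 1 of 21 alternatives passed. Alox5 at 3.05, 1.40 and 3.83 and Lta4h at 1.46, 6.93 and 0 in the GC tumors spread across the control range. The 32 GC cells together held 551 mast cell marker UMIs. Of them, 3 carried at least 2 of 6 mast cell markers, against 1 of 478 control cells. Without such cells (added after seeing the data) the GC levels of Alox5ap were 7.66, 14.2 and 14.7, those of Ptgs2 were 33.0, 7.86 and 30.4, which then overlapped the control tumors, and the edgeR change of Ptgs2 was -1.76 with an adjusted p of 0.0001. Of the 5 members tested, limma called 0 and edgeR called Ptgs2, and 2 had an unadjusted p under 0.05 by limma. Over 5345 genes limma called 10% and edgeR 8.46%, 18.3% did not overlap (beside 1 of 5 members, Ptgs2), and the median log2 change was -0.65.

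**Figure D3:**
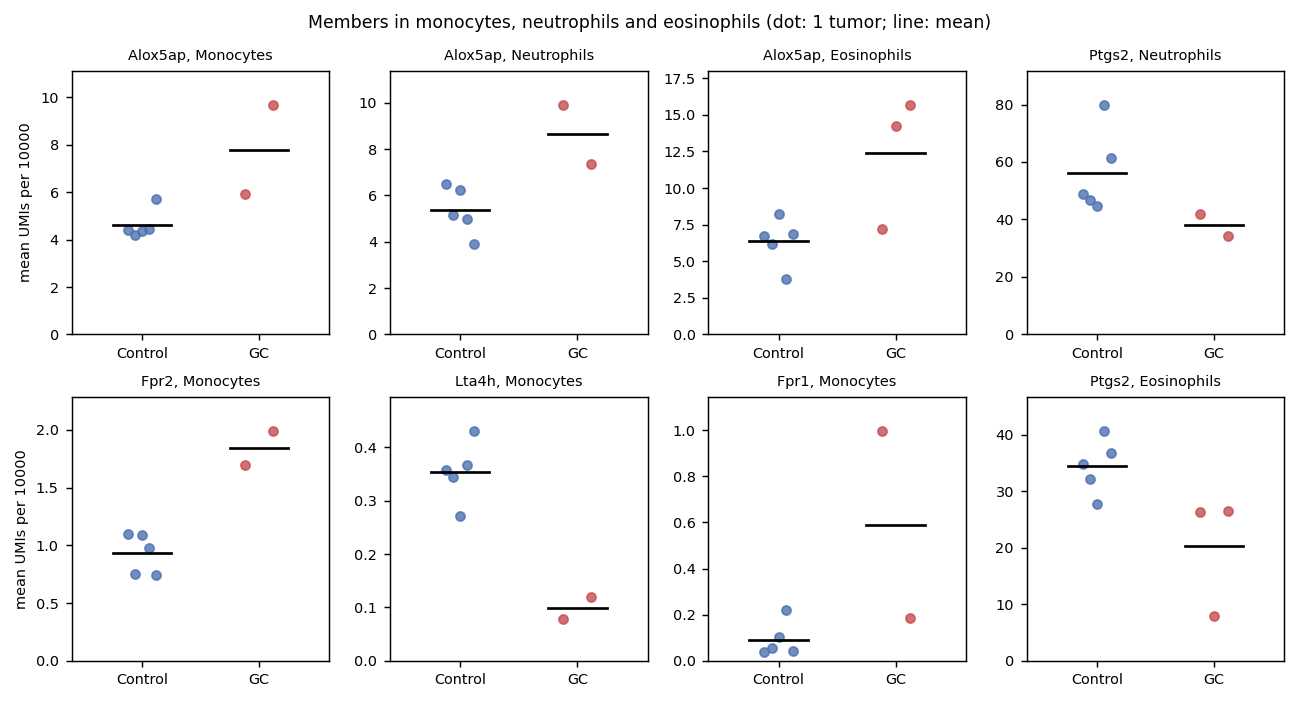
Levels (y axis, mean UMIs per 10000, from 0, a separate scale per panel) of Alox5ap in monocytes, neutrophils and eosinophils, of Ptgs2 in neutrophils and eosinophils, and of Fpr2, Lta4h and Fpr1 in monocytes, with 1 dot a tumor and a line at the mean. All GC tumors lie above the control tumors for Alox5ap in monocytes and neutrophils and for Fpr2, and below them for Ptgs2 and Lta4h.

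CD8 T cells showed little of these genes, and neither tested member was called. Anxa1 was at 0.425, 0.457, 0.417, 0.295 and 0.416 UMIs per 10000 in control and at 0.230, 0.496 and 0.324 in the 3 GC tumors of at least 10 cells. This was a log2 change of -0.19 ± 0.24 with an adjusted p of 0.666 by limma, and it turned to 0.01 without GC tumor 2. Lta4h was at 0.459 to 0.979 in control and at 0.834, 0.925 and 0.499 in GC tumors, a change of 0.12 ± 0.25 with an adjusted p of 0.801 by limma. Of the 2 members, 0 were called by limma, edgeR or DESeq2, none with an unadjusted p under 0.05, beside 5.02% of 6158 genes by limma and 6.15% by edgeR. In Tregs Lta4h was the 1 member tested, at 0.369 to 0.656 in control and at 0.299 and 2.91 in 2 GC tumors (adjusted p 0.392 by limma, with no call by edgeR or DESeq2 and no unadjusted p under 0.05 by limma or edgeR), beside 16.6% of 6031 genes by limma and 2.79% by edgeR. These 2 GC tumors held only 5 Tregs each, the fewest cells of any test.

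Differences between classes were fitted on each tumor's difference in log2 level. Between CD8 T cells and TAMs, 5.77% of 7224 genes and 2 of the 8 members passed, Alox5ap at -1.35 ± 0.25 (adjusted p 0.0198 by limma, 0.0049 to 0.0596 over 8 alternatives) and Ptgs1 at 1.58 ± 0.27 (adjusted p 0.0153 by limma, 0.0013 to 0.0494 over 8 alternatives). Both were far below the minimum of 0.2 UMIs per 10000 in control CD8 T cells (0.0540 and 0.0081) and entered the fit only through TAMs. The TAM changes themselves were 0.73 for Alox5ap and -1.19 for Ptgs1, and the rest came from CD8 T cell levels near 0, under the pseudocount. No difference in response is read from these values. With a pseudocount of 0.5 they were -0.81 and 0.59. Between TAMs and neutrophils the change of Alox5ap differed by 0.04 ± 0.40 (adjusted p 0.973 by limma), where 0.353% of 6513 genes and none of the members were called.

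**Figure D4:**
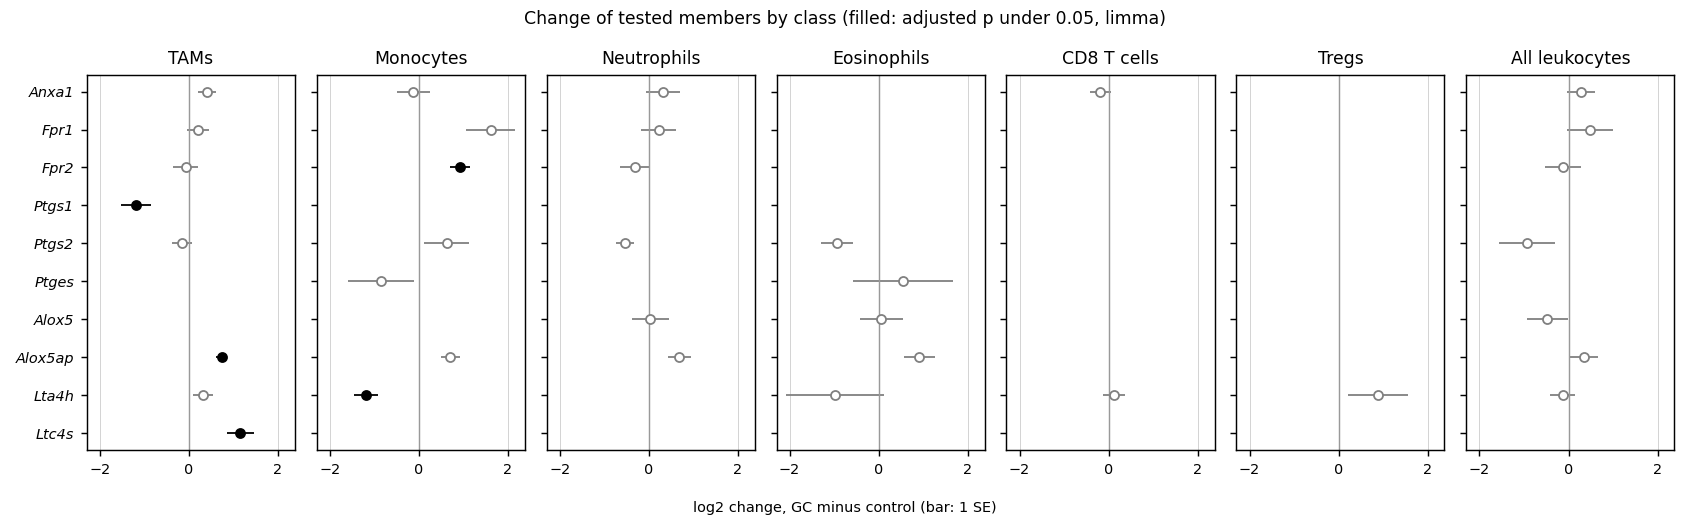
Log2 change, GC minus control (x axis, with bars of 1 SE), of each tested gene (y axis) in 6 classes and in all leukocytes, where filled points passed an adjusted p of 0.05 by limma. Filled points are Alox5ap, Ltc4s and Ptgs1 in TAMs and Fpr2 and Lta4h in monocytes, and Alox5ap lies to the right of 0 in every class where it was tested.

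In all leukocytes, where fewer cells of a class and less RNA per cell cannot be told apart, no member was called. Alox5ap was at 2.30, 1.93, 2.52, 2.16 and 2.44 UMIs per 10000 in control and at 2.20, 5.53, 3.77, 1.18 and 3.61 in GC tumors, so that 3 GC tumors lay above and 1 below all control tumors. The log2 change was 0.34 ± 0.32 with an adjusted p of 0.588 by limma, and among tumors with at least 50 cells, an alternative added after seeing the data, it was 0.87 with an adjusted p of 0.0079 (adjusted p 0.0079 to 0.963 over all alternatives). Anxa1 was at 0.508 to 0.764 in control and at 0.276, 0.943, 1.22, 1.30 and 0.685 in GC tumors, a change of 0.28 ± 0.32 with an adjusted p of 0.66 by limma. Of 7 members, limma, edgeR and DESeq2 called 0, with 0, 2 and 2 at an unadjusted p under 0.05, beside 6.15% of 6471 genes by limma and 9.43% by edgeR.

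Class shares alone were applied to the control levels to give the level each tumor would have if no class had changed. For Alox5ap in GC tumors this was 2.23 ± 0.818 (SD, n = 5) where 3.26 ± 1.66 was measured, and in control tumors 2.32 ± 0.195 where 2.27 ± 0.237 was measured. For Ptgs2 it was 13.3 ± 5.37 in GC tumors where 7.55 ± 6.09 was measured, and for Anxa1 0.741 ± 0.237 where 0.885 ± 0.418 was measured. Within tumors, the measured Ptgs2 level was below that given by the shares in 5 of 5 GC tumors and 3 of 5 control tumors, and the measured Alox5ap level was above it in 3 of 5 GC and 3 of 5 control tumors. These gaps were not tested. Which class supplied the UMIs differed between the channels: neutrophils gave 44.2% of GC Ptgs2 UMIs and 19.1% of control UMIs, and 53.3% of GC Alox5 UMIs and 24.9% of control UMIs, while TAMs gave 37.0% of GC and 86.1% of control Ptgs1 UMIs. Neutrophils were 44 of the 305 GC cells and 162 of the 3803 control cells.

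**Figure D5:**
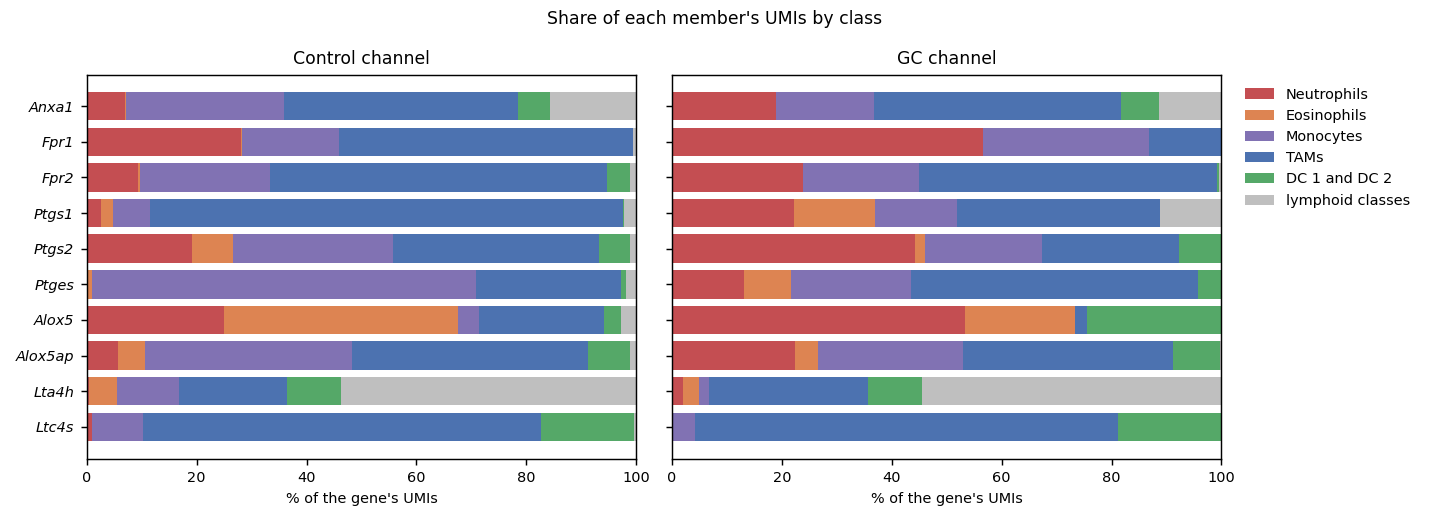
Share of each gene's UMIs (x axis, percent) that came from each class in the control and the GC channel (bars to 100%). A share depends on the number and depth of the cells as well as on the level. TAMs are the largest share of Ptgs1 and Ltc4s in control cells, and neutrophils are the largest share of Ptgs2, Fpr1 and Alox5 in GC cells.

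Classes with too few GC cells for a test are given as pooled levels with exact Poisson 95% intervals, which cover counting error only. In DC 2 Alox5ap was at 3.14 UMIs per 10000 (2.87 to 3.43) in 95 control cells and 4.91 (3.93 to 6.05) in 9 GC cells, Alox5 at 0.0586 (0.0268 to 0.111) and 0.621 (0.310 to 1.11), and Ltc4s at 0.124 (0.0745 to 0.193) and 0.508 (0.232 to 0.964). In DC 1 Ptgs2 was at 0.563 (0.450 to 0.695) in 97 control cells and 2.91 (2.25 to 3.71) in 10 GC cells. In each of these pairs the counting intervals did not overlap, but the GC cells are few and from few tumors. No share over all genes stands beside them, so that no change is read from them. After thinning to 1000 UMIs, an Alox5ap UMI was found in 16 of 95 control and 1 of 9 GC DC 2 cells. Alox5 and Ltc4s were each found in 0 of 95 and 0 of 9, and Ptgs2 in DC 1 in 3 of 97 and 3 of 10. Unthinned median depths in DC 2 were 15930 and 22078 UMIs. Ptgs2 in DC 2 was at 6.69 and 6.83. For Anxa1 the DC 2 intervals, 0.714 to 1.01 and 0.868 to 2.01, overlapped, as did those of NK cells, 0.511 to 0.840 and 0.0032 to 0.701. CD8 T cells were a tested class, but Ptgs2 there lay below the minimum of 0.2 UMIs per 10000 and is given pooled. It had 115 control UMIs, or 0.188 (0.155 to 0.226), and 1 GC UMI, or 0.0096 (0.0002 to 0.0537). Such levels were set above as what free RNA in the droplets could give. The channels also differed in the cells loaded, so that no change in CD8 T cells is read from these counts.

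The wider eicosanoid and annexin genes were taken from a list of 57 others (phospholipases, prostanoid synthases and receptors, other lipoxygenases, leukotriene enzymes and receptors, other annexins and pro-resolving receptors). As background, limma and edgeR called 21.2% and 11.2% of all genes in TAMs, 15.4% and 6.82% in monocytes, and 4.83% and 4.65% in neutrophils. These shares were 10% and 8.46% in eosinophils, 5.02% and 6.15% in CD8 T cells, 16.6% and 2.79% in Tregs, and 6.15% and 9.43% in all leukocytes. In TAMs 22 of the list were tested, of which limma called 3 higher and 9 lower, and edgeR 3 higher and 3 lower. Cyp4f18, which breaks down leukotriene B4, rose by 1.24 ± 0.19 (adjusted p 0.0016 by limma, 0.0003 by edgeR). Ltb4r1, a leukotriene B4 receptor, rose by 0.70 ± 0.19 (adjusted p 0.0229 by limma, 0.0232 by edgeR). Tbxas1, the thromboxane synthase, fell by 1.06 ± 0.20 (adjusted p 0.0049 by limma, 0.0174 by edgeR), and Ptger4, a prostaglandin E2 receptor, fell by 1.10 ± 0.22 (adjusted p 0.0054 by limma, 0.0284 by edgeR). Pla2g15, a lysosomal phospholipase, was lower by limma alone at -1.14 ± 0.23 (adjusted p 0.0056, 0.0507 by edgeR), as was Plaa, named for activating phospholipase A2, at -0.86 (adjusted p 0.0164 by limma).

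Pla2g7, which breaks down platelet-activating factor, fell in TAMs by 0.65 ± 0.17, in neutrophils by 1.08 ± 0.28 and in eosinophils by 1.30 ± 0.24 (adjusted p 0.0201, 0.0267 and 0.0156 by limma, and 0.0421, 0.0316 and 0.0008 by edgeR). It was the 1 gene called of 15 in neutrophils. S100a11, a partner of annexin A1, rose in TAMs by 0.80 ± 0.11 (adjusted p 0.0011 by limma, 0.0003 by edgeR) and in monocytes by 1.23 ± 0.18 (adjusted p 0.0035 by limma, 0.0012 by edgeR). The second call of 23 in monocytes was Anxa7 at -1.36 (adjusted p 0.037 by limma, 0.126 by edgeR). Of 19 in eosinophils limma called 4, all lower: Anxa2 at -3.31, Ltb4r1 at -2.40, Anxa3 at -2.16 and Pla2g7. Of these edgeR called only Pla2g7 (adjusted p 0.0552 for Anxa2, 0.17 for Ltb4r1 and 0.301 for Anxa3 by edgeR), and its other calls, also lower, were Alox15, Pla2g4a and Cyp4f18. For Alox15, Pla2g4a and Cyp4f18 edgeR gave -1.25, -1.82 and -1.29, but limma gave 0.02, -0.60 and 0.03. The median edgeR change over all genes tested in eosinophils was -0.58. Values of these genes without cells with mast cell markers are not given here. Of 16 in CD8 T cells 0 were called by limma or edgeR, with 3 and 2 at an unadjusted p under 0.05. Of 17 in Tregs limma called 1 higher and 4 lower (S100a11 at 0.97, Anxa4 at -2.25, Ptger2 at -2.10, Ltb4r1 at -2.09 and Mgst2 at -2.03) and edgeR 0, with 6 at an unadjusted p under 0.05. In all leukocytes limma called 2 of 22, both lower, Pla2g7 at -1.30 and Anxa5 at -0.80. Neither was called by edgeR (adjusted p 0.0949 and 0.0581), which called 2 other genes lower, Tbxas1 and Anxa7 (adjusted p 0.0114 and 0.049).

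The genes most like each member over the 12 classes of control cells are given by Pearson's r of log2 levels, as a description over 12 points that share the same 5 tumors, 1 channel and their depth. Alox5ap was followed by C130050O18Rik (0.998), Emilin2 (0.993) and Tgm2 (0.988), and Ptgs2 by Emilin2 (0.978) and Nfam1 (0.975), among others. For Alox5 the genes were 9830107B12Rik (0.979), Vasp (0.974) and Aqp9 (0.973). Fpr1 had Csf3r (0.972), Hcar2 (0.965) and Rab7 (0.962), and Fpr2 had Bst1 (0.985), Pilra (0.978) and Sirpb1b (0.974). The pattern of Ltc4s was nearest to Rnf180 (0.951), Dapk1 (0.943) and Htr7 (0.928), that of Ptges to Chil3 (0.896), F13a1 (0.871) and Arhgef37 (0.868), and that of Ptgs1 to Gm5150 (0.831), Cltc (0.830) and Atp6ap1 (0.826). Anxa1 came nearest to Ppt1 (0.923), Pxn (0.908) and Rnf13 (0.873), and Lta4h to Pabpc1 (0.879), Stn1 (0.861) and Pcmt1 (0.860). Among the members themselves r was 0.974 for Alox5ap and Ptgs2, 0.877 for Alox5ap and Fpr2, 0.869 for Ptgs2 and Fpr2, and 0.839 for the neighbours Fpr1 and Fpr2.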

How the data were processed

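Single cell 3' libraries and hashtag libraries of sorted CD45+ cells were analysed. Per the labels and methods, the authors counted UMIs with Cell Ranger 7.1.0 on mm10 (GRCm38) with introns, assigned hashtags, removed outlier cells and integrated and clustered with Seurat 5.0.3. The authors also deposited the mitochondrial percent of each cell, which was not used here, and its UMI count. Values were deposited as the natural log of 1 plus UMIs per 10000. From them whole UMIs were recovered for 100% of 10330441 values above 0 (tolerance 0.01). Cells of mixed hashtags had been removed, and no further doublet caller was run. Each tumor's mean was tested with limma 3.58.1 (R 4.3.3, trended robust variance, pseudocount 0.1, genes with a mean of at least 0.2) across all genes with Benjamini-Hochberg adjustment. edgeR 4.0.16 (quasi-likelihood) and DESeq2 1.42.0 were run on summed recovered counts as alternatives, with other filters, scalings and pseudocounts and each tumor left out. In designs of 5 against 2 tumors, limma made too many false calls on simulated data and edgeR did not. The simulated counts followed a negative binomial with the same spread for every gene, the kind of model that edgeR fits. In the simulation limma was given summed UMIs and not means over cells. It therefore cannot rank limma and edgeR on these data, and the edgeR value stands beside each call. Shares of cells used exact Clopper-Pearson 95% intervals, percent of cells after thinning to 1000 UMIs, which leaves out shallower cells (315 of 478 control eosinophils). A count of 0 allows up to 3 counts. Intervals cover counting error only. Coordinates are from GENCODE M21. Named were all 10 members, the 3 genes most like each (1 of which is not reported here), and up to 5 called genes of the wider list per class by size. S100a11, Pla2g7 and Ltb4r1 in TAMs were named after their values were seen. The members and lists were chosen with earlier results of these data known. Tumor numbers are only names. The deposited cell table gave class and tumor.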

Additional observations from a re-analysis of the deposited data

Results flagged for a closer look

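Of 47 groups of 4 or 5 control or GC tumors examined for a member's level, 4 had a tumor far from the others, where chance gives about 1 in 20. These were the lowest Anxa1 level in control CD8 T cells (0.295 UMIs per 10000), the highest Ptgs2 level in control TAMs (11.1), the highest Alox5ap level in control monocytes (5.69, from the control tumor with 19 monocytes) and the highest Lta4h level in all leukocytes of a control tumor (0.896). The GC changes of Alox5ap (CD8 T cells minus TAMs, -1.35, adjusted p 0.0198 by limma) and of Ptgs1 (1.58, adjusted p 0.0153 by limma) passed the fit of the difference between classes. Both genes are near 0 in CD8 T cells (0.0540 and 0.0081 UMIs per 10000 in control), under the pseudocount. The values therefore mix the TAM changes (0.73 and -1.19) with CD8 T cell levels near the floor, and at a pseudocount of 0.5 they were -0.81 and 0.59.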

How the results depend on the processing

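The calls with 2 GC tumors rest on 17 and 16 TAMs or 8 and 10 monocytes, and weighting tumors by their cells ended all 5. In TAMs, cell weights gave 0.76 for Alox5ap (leaving out a tumor 0.61 to 0.85), and 1.17 for Ltc4s, which edgeR gave as 1.59. Ptgs1 lost its call with no filter on low values (-1.19), median-of-ratios scaling (-1.13), cell weights (-1.18), edgeR (-1.36) and DESeq2 (-1.36), and ranged from -1.88 to -0.50 with a tumor left out. In monocytes Fpr2 lost its call with no filter (0.92), cell weights (0.86) and Monocytes 1 only (0.65), and ranged from 0.82 to 1.03 with a tumor left out. Lta4h there lost it with cell weights (-1.09), edgeR (-1.61), DESeq2 (-1.59) and Monocytes 1 only (-0.85), with -1.35 to -1.04 on leaving out a tumor. The Alox5ap difference between CD8 T cells and TAMs ran from -1.47 to -1.23 with a tumor left out and was -0.81 at a pseudocount of 0.5, where that of Ptgs1 was 0.59, against 1.38 to 1.77 with a tumor left out. A lone GC tumor was assumed to vary like the others. The causes were not tested.

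Directions that turned, none of them called, were Anxa1 in monocytes (0.42 at 10 cells or more, 0.14 with mean log values, 0.14 with cell weights, 0.21 by edgeR, 0.19 by DESeq2, 0.58 in Monocytes 1, -0.66 to 0.42 with a tumor left out), Anxa1 in CD8 T cells (0.011 at 20 cells or more, -0.41 to 0.011 with a tumor left out), Lta4h in CD8 T cells (-0.027 to 0.36 with a tumor left out), Anxa1 in neutrophils (-0.45 to 1.11 with a tumor left out) and Alox5ap in eosinophils by edgeR without cells with mast cell markers (-0.24).

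Counts of called genes moved by over 1.5 times in TAMs with a mean of at least 1 (667), cell weights (48), edgeR (670) and DESeq2 (735), and ran from 867 to 2117 with a tumor left out. In monocytes they were 481 with a mean of at least 1, 1379 at 10 cells, 34 with weights, 393 by edgeR, 553 by DESeq2 and 488 to 1502 with a tumor left out. In neutrophils they were 390 with mean log values, 81 with weights and 105 to 241 with a tumor left out. In eosinophils they were 117 at a pseudocount of 0.5, 56 unfiltered, 73 with a mean of at least 1, 2285 at 10 cells, 34 with mean log values, 31 with weights, 207 by DESeq2, 937 and 230 (limma and edgeR) without cells with mast cell markers, and 22 to 1093 with a tumor left out. In CD8 T cells they were 167 unfiltered, 195 at 5 cells, 604 at 20 cells, 181 with weights and 135 to 604 with a tumor left out. In Tregs they were 519 with a mean of at least 1, 16 with weights, 168 by edgeR, 366 by DESeq2 and 474 to 3236 with a tumor left out. In all leukocytes they were 610 by edgeR, 1080 by DESeq2, 773 at 50 cells and 101 to 666 with a tumor left out. Monocytes 1 only, 50 cells and the mast cell alternative were chosen after seeing the data.

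Few UMIs limit Ltc4s (214 in control cells), Alox5 (293), Fpr1 (325), Ptges (333) and Ptgs1 (416). No paired analysis was possible because the tumor numbers only name hashtags and pair no tumors across groups.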
